A study of Mus musculus with 12 samples.

Results

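Amino acid transporters of T cells were followed in RNA-seq and ATAC-seq of pLN CD8+ T_prog_ cells with and without UTX. The group was a given list of 10 genes, *Slc7a1*, *Slc7a5*, *Slc7a6*, *Slc7a11*, *Slc3a2*, *Slc1a4*, *Slc1a5*, *Slc38a1*, *Slc38a2* and *Slc43a1*, and every one of the 10 had a row among the 25860 genes of the expression table. The accessibility table held 23932 peaks, of which 29 were annotated to these genes.

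T cells import amino acids both as building blocks and as signals. Large neutral amino acids enter through pairs of a light chain, which carries the substrate, and the glycoprotein heavy chain encoded by *Slc3a2*, which brings the light chain to the cell surface. Glutamine, alanine and serine enter through sodium-dependent carriers, and arginine and lysine through a separate cationic system. T cells raise several of these carriers on antigen stimulation, and leucine and arginine inside the cell are sensed on the way to the kinase complex mTORC1.

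The cells came from the pancreatic lymph nodes of nonobese diabetic mice that carry the NY8.3 transgenic T cell receptor. This receptor recognizes a peptide of the β cell protein IGRP, and both genotypes carry it. Whether other receptors were also present was not tested. *NOD-TCR 8.3 UTX TCD* mice (UTX TCD) lack UTX through *UTX fl/fl* alleles and a Cre driven by the *Lck* promoter, which deletes in the T cell lineage from the thymus on, and Cre-negative mice served as *NOD-TCR 8.3 WT* controls (WT). Only females were used, and the age of the mice behind these libraries was not given in the sources used here, nor was any pooling of animals. T_prog_ cells were sorted on Ly108, the product of *Slamf6*, and on absence of a second marker, CXCR6 in the labels and CD39 in the methods. Each genotype had 3 biological replicates in each assay.

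The depth of the RNA-seq libraries was 146456724, 144503203 and 193568919 reads for WT and 61512402, 175462433 and 187275082 for UTX TCD cells, so UTX TCD replicate 1 was the shallowest. Values are normalized counts, which are the reads of a gene divided by 1 size factor per library. Genes with a mean of at least 10 normalized counts, 14459 in all, were compared with limma on log2(normalized count + 1), a scale that understates the change of low genes. To be called, a gene had to change by more than 0.5 on the log2 scale in either direction, given throughout as UTX TCD over WT, with a p, adjusted over all genes tested (Benjamini-Hochberg), under 0.05. An exact permutation test of 3 libraries against 3 cannot go below a two-sided p of 0.10 for any single value.

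The targeted gene *Kdm6a*, which encodes UTX, had 28365, 28949 and 29172 normalized counts in WT and 24158, 24792 and 24579 in UTX TCD libraries. All 3 UTX TCD libraries were below all 3 WT libraries, in the direction of the labels, at a log2 fold change of -0.23 (limma adjusted p = 0.00114). These values count the whole gene, and the deleted part was not measured on its own.

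Differences of the transporters were small and went both ways, with *Slc1a5* higher and the heavy chain gene *Slc3a2* lower. Of the 9 transporters tested, 1 was called, *Slc1a4*, against 17.6% of all genes tested. By adjusted p alone, 5 were higher (*Slc1a5*, *Slc7a6*, *Slc7a1*, *Slc38a1* and *Slc1a4*) and 1 was lower (*Slc3a2*), against 20.2% of all genes tested that were higher and 20.5% that were lower. The number passing was 2 without WT replicate 1 or WT replicate 3 and 3 without UTX TCD replicate 2, and the number called was 0 without either of these WT libraries or UTX TCD replicate 1 or 2. The 2 genotypes did not overlap for 7 of the 9, as was the case for 51.9% of all genes tested. The median log2 fold change of the 9 was 0.13, against -0.00 over all genes tested. In bulk RNA, fewer cells that express a gene and less of its RNA per cell cannot be told apart.

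**Figure D1:**
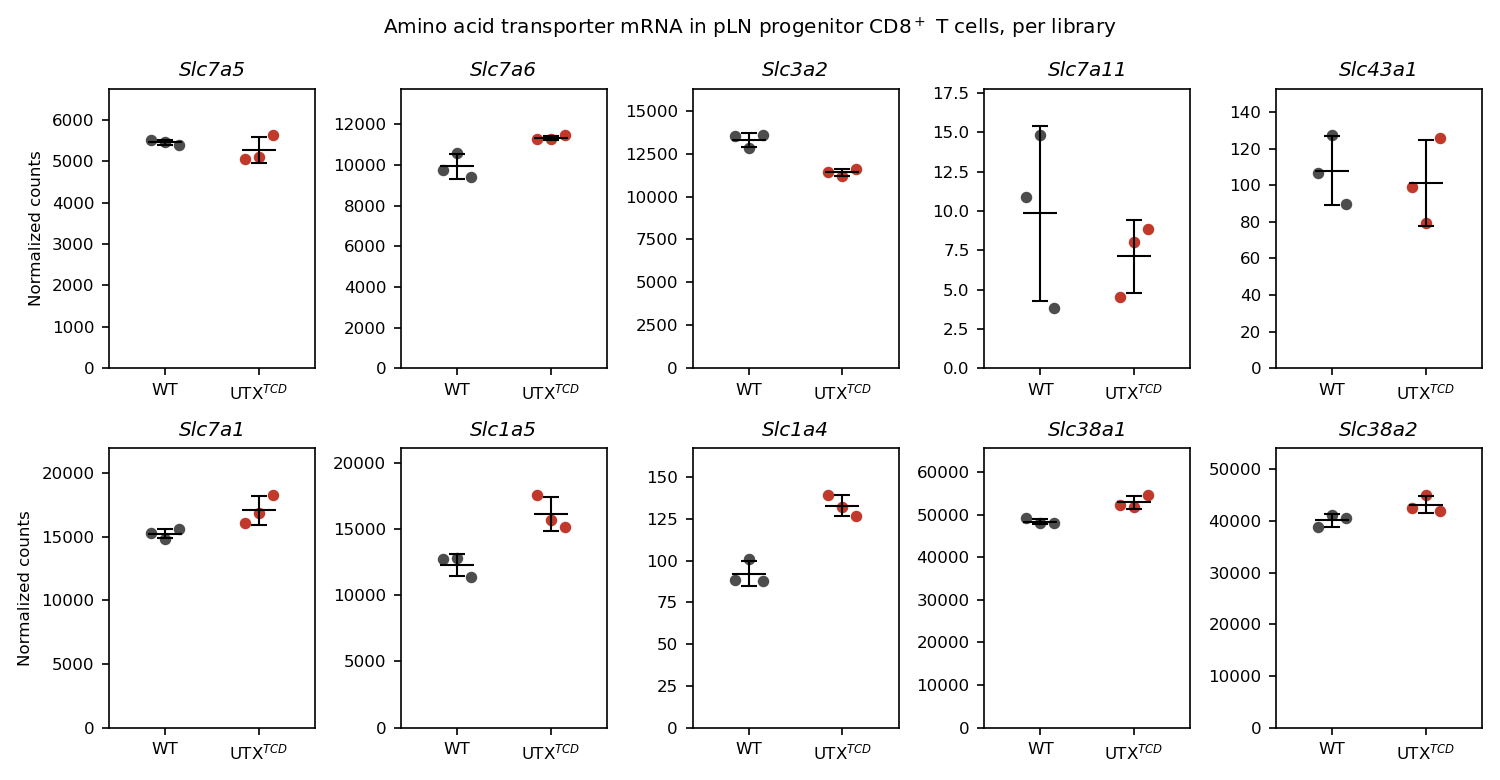
Normalized counts of the 10 transporters in each RNA-seq library (y axis, from 0), with WT libraries as grey points and UTX TCD libraries as red points, 3 each. Bars mark the mean and SD, and the groups are apart for *Slc7a6*, *Slc3a2*, *Slc7a1*, *Slc1a5*, *Slc1a4*, *Slc38a1* and *Slc38a2* and overlap for *Slc7a5*, *Slc7a11* and *Slc43a1*.

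The glutamine exchanger *Slc1a5*, known as ASCT2, showed the firmest increase of the family. It had 12716, 12816 and 11346 normalized counts in WT and 17574, 15673 and 15148 in UTX TCD libraries. The lowest UTX TCD library was thus above the highest WT library. The mean went from 12293 ± 821 to 16132 ± 1277 (SD, n = 3 per genotype), a log2 fold change of 0.39 with a 95% interval of 0.24 to 0.55 (limma adjusted p = 0.00186), short of the fold limit of a call.

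Its relative *Slc1a4*, or ASCT1, carries serine, alanine and other small neutral amino acids and was the one transporter called higher. Its 88.2, 101 and 87.7 normalized counts in WT and 139, 132 and 127 in UTX TCD libraries did not overlap. The log2 fold change was 0.52 with a 95% interval of 0.14 to 0.91 (limma adjusted p = 0.0354), hardly above the fold limit. These values rest on few reads, 89, 102 and 115 in WT libraries and 62, 165 and 172 in UTX TCD libraries. The call was lost without WT replicate 1 (adjusted p = 0.117 by limma), WT replicate 3 (0.101), UTX TCD replicate 1 (0.103) or UTX TCD replicate 2 (0.0976), and with DESeq2 (0.0626). It was also lost in limma with the replicate number as a block (limma adjusted p = 0.0624) and with no filter on low values (limma adjusted p = 0.0711). The log2 fold change stayed between 0.49 and 0.59 in all 18 alternatives. The low-value filters, limma without trend, the replicate block and the fold limits cannot move it.

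*Slc38a1* and *Slc38a2* encode SNAT1 and SNAT2, sodium-coupled carriers of glutamine, alanine and other small neutral amino acids. *Slc38a1* had 49093, 47905 and 48039 normalized counts in WT and 52262, 51677 and 54659 in UTX TCD libraries, without overlap, and a log2 fold change of 0.13 (limma adjusted p = 0.0329). *Slc38a2* had 38726, 41058 and 40601 in WT libraries and 42450, 45064 and 41985 in UTX TCD libraries. These groups were apart as well, but the log2 fold change of 0.11 did not pass (limma adjusted p = 0.0949). It passed with every library scaled to the same sum (limma adjusted p = 0.0132), the lowest of its alternatives, which ran up to 0.318. Leaving out any of the 6 libraries moved *Slc38a1* across the limit, with a limma adjusted p between 0.0565 and 0.0914, as did TMM scaling (0.0572) and limma without trend (0.0727). The lncRNA *Gm32457* shares 1796 bp with *Slc38a1* on the same strand, so reads of the 2 genes may be mixed.

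*Slc7a1*, the main carrier of arginine and lysine in T cells, known as CAT1, had 15326, 14828 and 15565 normalized counts in WT. In UTX TCD cells it had 16065, 16856 and 18299, all above the WT libraries. The log2 fold change was 0.16 with a 95% interval of 0.04 to 0.28 (limma adjusted p = 0.0377). Without WT replicate 1, 2 or 3 or UTX TCD replicate 2 or 3, the limma adjusted p lay between 0.0594 and 0.0922. It was 0.0582 with TMM scaling and 0.0998 in limma without trend, the highest of its alternatives.

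Within the heavy chain system, the chains differed in direction. The heavy chain gene *Slc3a2* had 13525, 12806 and 13565 normalized counts in WT and 11445, 11183 and 11601 in UTX TCD libraries. No UTX TCD library reached a WT library, and the log2 fold change was -0.22 with a 95% interval of -0.32 to -0.12 (limma adjusted p = 0.00312). Like *Slc1a5*, it had an adjusted p under 0.05 in all 18 alternatives, limma and the other tools alike. The changed fold limits among these leave the p as it was. *Slc7a6*, the y+LAT2 light chain that exchanges arginine and lysine for neutral amino acids, was at 9763, 10584 and 9415 in WT libraries and 11249, 11269 and 11450 in UTX TCD libraries. Its log2 fold change was 0.19 (limma adjusted p = 0.0146), and its limma adjusted p was 0.0579 without WT replicate 1, 0.0555 without WT replicate 3 and 0.0506 without trend.

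*Slc7a5*, the LAT1 light chain that brings in leucine and other large neutral amino acids, overlapped between genotypes. It was at 5518, 5468 and 5397 in WT libraries and 5063, 5101 and 5627 in UTX TCD libraries. The log2 fold change was -0.05 with a 95% interval of -0.18 to 0.07 (limma adjusted p = 0.453), and its sign turned with every library scaled to the same sum. *Slc7a11*, the xCT light chain that takes up cystine in exchange for glutamate, was close to absent, with 11, 15 and 5 reads in WT libraries and 2, 10 and 12 reads in UTX TCD libraries. Its mean of under 10 normalized counts kept it out of the test. *Slc43a1*, or LAT3, carries large neutral amino acids without a heavy chain and had 107, 127 and 90.0 normalized counts in WT and 99.0, 79.3 and 126 in UTX TCD libraries. These overlapped as well (log2 fold change -0.10, 95% interval -0.62 to 0.42, limma adjusted p = 0.754), and the lncRNA *D930003E18Rik* overlaps 1354 bp of *Slc43a1* on the opposite strand.

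Levels of the 10 transporters were set side by side only after division by the exon length of each gene in kb. Per kb, *Slc38a2* led in WT cells with 8615 ± 265 normalized counts (SD, n = 3), followed by *Slc38a1* with 5762 ± 77.5. *Slc3a2* with 4496 ± 144 and *Slc1a5* with 4457 ± 298 did not differ beyond their spread, nor did *Slc7a6* with 2152 ± 130 and *Slc7a1* with 2105 ± 52.0. *Slc7a5* came next with 1554 ± 17.2. *Slc43a1* with 37.0 ± 6.40, *Slc1a4* with 23.5 ± 1.88 and *Slc7a11* with 1.07 ± 0.604 were far below. The family thus held 7 abundant and 3 scarce transcripts, and the single call fell on a scarce one.

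The order in UTX TCD cells was the same apart from *Slc1a5*, which stood above *Slc3a2* there at 5849 ± 463 against 3857 ± 71.5 normalized counts per kb. *Slc1a4* at 33.8 ± 1.62 came level with *Slc43a1* at 34.7 ± 8.03. *Slc38a1* and *Slc38a2* together made up 48.5%, 49.3% and 49.9% of the summed level of the 10 genes per kb in WT libraries and 48.3%, 50.1% and 49.1% in UTX TCD libraries, so the share of this carrier pair overlapped between genotypes. These sums and the ratios that follow were chosen after the values were seen and are given as a description.

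The balance of heavy and light chains was computed within each library, which frees it from the scaling between libraries. *Slc3a2* per kb was 1.23, 1.11 and 1.27 times the summed level of its 6 light chains (*Slc7a5*, *Slc7a6*, *Slc7a7*, *Slc7a8*, *Slc7a10* and *Slc7a11*) in WT. In UTX TCD cells it was 0.939, 0.922 and 0.903 times that sum, below every WT library. The ratio of *Slc7a6* to *Slc7a5* per kb was 1.35, 1.48 and 1.33 in WT libraries and 1.69, 1.68 and 1.55 in UTX TCD libraries, without overlap. *Slc7a7* supplied 0.458%, 0.663% and 0.411% of the summed light chains in WT and 5.26%, 4.41% and 5.35% in UTX TCD libraries.

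The 42 other amino acid transporters of the plasma membrane and lysosome held larger log2 fold changes, in both directions, than the 10 T cell genes. Of these 42, 21 were tested, 6 were called higher and 1 lower (17.6% of all genes tested were called in either direction), and their median log2 fold change was 0.17. *Slc7a7*, the y+LAT1 light chain, had 45.6, 69.1 and 39.7 normalized counts in WT and 580, 484 and 621 in UTX TCD libraries, an 11.0-fold difference of group means on the test's scale (log2 fold change 3.46, 95% interval 2.95 to 3.96, limma adjusted p = 7.45e-06). *Slc6a19*, a sodium-coupled carrier of neutral amino acids, went from 280, 327 and 266 to 951, 1007 and 649 (log2 fold change 1.55, limma adjusted p = 0.000146). *Slc7a4*, a relative of the cationic carriers, had a log2 fold change of 1.49 (limma adjusted p = 0.00228). *Slc43a3*, a relative of *Slc43a1* that carries purine nucleobases, had one of 1.00 (limma adjusted p = 7.44e-05). Despite that substrate, *Slc43a3* is counted among the 42, the 21 tested and the 6 called higher.

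*Slc16a10*, which carries aromatic amino acids, was the transporter called lower. It had 2767, 2246 and 2813 normalized counts in WT and 637, 636 and 425 in UTX TCD libraries (log2 fold change -2.22, 95% interval -2.59 to -1.85, limma adjusted p = 1.42e-05). The gene of this list with the most normalized counts, *Slc43a2* or LAT4, was at 31505 ± 2903 and 24986 ± 1640 (SD, n = 3 per genotype) and was not called (log2 fold change -0.33, limma adjusted p = 0.00593). The other 2 calls, *Slc7a3* with a log2 fold change of 0.89 and *Slc7a8* with 0.84, are named because their values were seen. *Slc7a8* encodes a further heavy chain partner, and *Slc7a3* a cationic carrier.

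**Figure D2:**
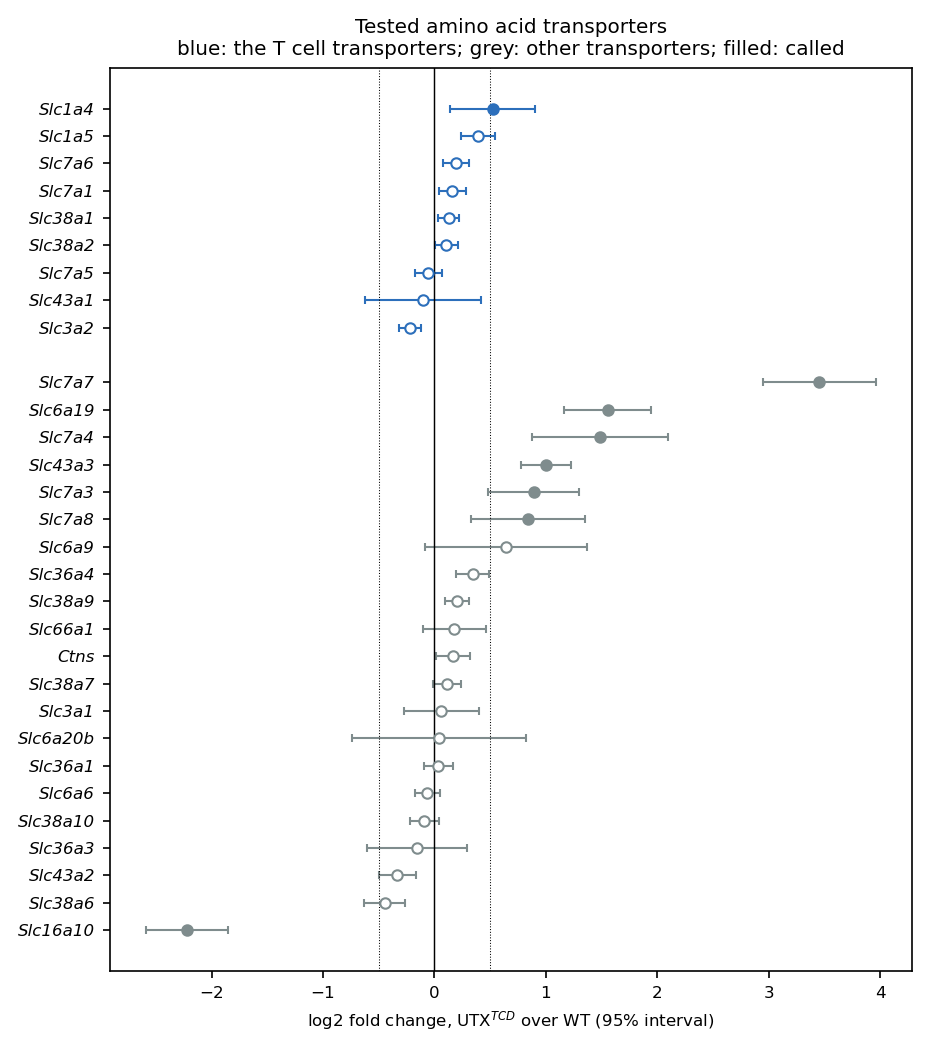
log2 fold change of UTX TCD over WT (x axis) with its 95% interval for the 9 tested T cell transporters (blue) and the 21 tested other transporters (grey), with called genes filled and dotted lines at the fold limit of 0.5. The blue points lie between -0.22 and 0.52, while *Slc7a7* at 3.46 and *Slc16a10* at -2.22 mark the ends of the grey ones.

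Amino acid shortage is read by the kinase GCN2, which leads to translation of the transcription factor ATF4, whose targets include transporters and enzymes of amino acid synthesis. Of 23 genes of this response, 19 were tested and 5 were called, each of them higher, beside 17.6% of all genes tested called in either direction, with a median log2 fold change of 0.07. *Asns*, asparagine synthetase, went from 79.2, 114 and 74.0 normalized counts in WT to 468, 428 and 444 in UTX TCD libraries (log2 fold change 2.34, 95% interval 1.92 to 2.76, limma adjusted p = 2.14e-05). *Sesn2*, a leucine-binding stress protein, had a log2 fold change of 0.89, *Ddit3*, the transcription factor CHOP, 0.62, and the alanine transaminase *Gpt2* 0.61. The fifth call, *Stc2* with 0.60, is named after its value was seen. The gene of the list with the most normalized counts, *Ddit4*, was not called (log2 fold change -0.07, limma adjusted p = 0.612). By adjusted p alone, 7 of the 19 were higher and 2 lower, against 20.2% of all genes tested that were higher and 20.5% that were lower. Without a call, 2 were higher, *Eif2ak4*, which encodes GCN2, and *Atf5*. The 2 lower genes, also without a call, were *Atf4* itself and *Phgdh*, an enzyme of serine synthesis. All of these are named after their values were seen. The log2 fold change was 0.17 for *Eif2ak4* (limma adjusted p = 0.0128) and 0.32 for *Atf5* (limma adjusted p = 0.00602). *Atf4* was at 9870 ± 739 in WT libraries and 8534 ± 688 in UTX TCD cells (SD, n = 3 per genotype), which overlapped (log2 fold change -0.21, limma adjusted p = 0.0428). *Phgdh* had a log2 fold change of -0.48 (limma adjusted p = 0.00303).

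Downstream of import, mTORC1 and its amino acid sensors had 1 gene called higher and 3 lower of 35, all tested, beside 17.6% of all genes tested that were called. By adjusted p alone, 3 were higher and 10 lower, against 20.2% of all genes tested that were higher and 20.5% that were lower. The median log2 fold change of the 35 was -0.04. The genes called lower were *Deptor*, an inhibitor of mTOR (log2 fold change -1.14), *Sesn1*, a leucine-binding inhibitor upstream of mTORC1 (-0.59), and *Castor1*, the arginine sensor (-0.55). *Fnip2*, a partner of folliculin, was called higher (log2 fold change 0.67). *Sesn3*, the gene of the list with the most normalized counts, was at 29344 ± 912 and 25153 ± 2300 normalized counts (SD, n = 3 per genotype) and was not called (log2 fold change -0.23, limma adjusted p = 0.0228). The counts of these 35 depend on the list, which leaves out sensors placed in other lists. Among those left out, *Sesn2* was called higher (log2 fold change 0.89) and *Slc38a9* was higher without a call (0.21).

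Of 25 enzymes that use the imported amino acids, all tested, 2 were called higher and 2 lower, a share near the 17.6% of all genes tested, with a median log2 fold change of -0.07. *Gls2*, a glutaminase present at low level, had a log2 fold change of 1.12 with a 95% interval of 0.31 to 1.93 (limma adjusted p = 0.0337). It rests on few reads, 22, 15 and 21 in WT libraries and 14, 38 and 82 in UTX TCD libraries. *Bcat1*, the cytosolic branched-chain transaminase, had a log2 fold change of 0.99. *Gclm*, which makes a subunit of the enzyme that joins glutamate and cysteine (-0.76), and *Gpx4*, a glutathione peroxidase (-0.57), were called lower. *Mat2a*, the enzyme with the most normalized counts, makes S-adenosylmethionine from methionine and was not called (log2 fold change 0.15, limma adjusted p = 0.0316). Without WT replicate 3, the number of calls in this list was 2 in place of 4.

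Of 12 activation genes that rise along with nutrient uptake, all tested, 2 were called, both higher, a share near the 17.6% of all genes tested that were called in either direction, with a median log2 fold change of 0.19. *Mki67*, a proliferation marker, had 13571, 14836 and 13395 normalized counts in WT and 27436, 26910 and 34778 in UTX TCD libraries (log2 fold change 1.08, limma adjusted p = 3.25e-05). *Irf4*, a transcription factor induced by T cell receptor signals, had a log2 fold change of 0.62 (limma adjusted p = 0.0212). *Hif1a*, the gene of the list with the most normalized counts over all 6 libraries, though not in UTX TCD libraries alone, was not called (log2 fold change 0.01, limma adjusted p = 0.829). The 2 calls became 1 without WT replicate 1, WT replicate 3 or UTX TCD replicate 3.

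Over the 6 libraries, *Slc1a5*, the one of the 10 T cell transporters with the largest moderated statistic, was most closely followed by *Slc22a17* (Pearson r = 0.997), *Fam234b* (0.995) and *Slc38a9* (0.995). *Slc22a17*, which encodes a lipocalin receptor, had a log2 fold change of 0.86 and was called, while *Fam234b* (0.37) and *Slc38a9* (0.21), a lysosomal arginine sensor, were not. The 6 points fall into 2 genotypes and share the libraries' depth, so each r is a description.

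Markers of the sorted cell and of other cells were read from the same libraries. Of 7 CD8 T cell genes, all tested, none was called by limma, edgeR or DESeq2 (5 had an unadjusted limma p under 0.05). Of all genes tested, 17.6% were called by limma. *Cd8a*, with the most normalized counts, was at 272155 ± 2012 and 298501 ± 23849 (SD, n = 3 per genotype), which overlapped. By limma adjusted p alone, 1 of the 7 was higher and 3 were lower, against 20.2% of all genes tested that were higher and 20.5% that were lower. These 4 genes did not overlap between genotypes, as was the case for 51.9% of all genes tested, and are named after their values were seen. The log2 fold change was 0.17 for *Cd3e*, -0.37 for *Cd8b1*, -0.28 for *Cd3d* and -0.26 for *Cd3g*. *Slamf6* of the sort gate was at 28378 ± 5425 and 34357 ± 2989 and was not called. Of the effector markers, *Cxcr6* was abundant in WT cells, although the labels give the gate as lacking CXCR6, and was lower in UTX TCD cells. *Entpd1* was scarce in both. *Cxcr6* had 12757, 9619 and 13724 normalized counts in WT and 5286, 5994 and 5695 in UTX TCD libraries (log2 fold change -1.07, limma adjusted p = 0.000131), and *Entpd1*, which encodes CD39, was at 17.3 ± 10.7 and 7.24 ± 4.82.

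For the marker lists that follow, the calls stand beside 17.6% of all genes tested that were called. Of 6 B cell and plasma cell markers, 5 were tested, 2 were called higher (*Ms4a1* and *Jchain*, both low) and 1 lower (*Cd79b*). Their summed level was 2967, 2466 and 2810 normalized counts in WT and 1260, 1112 and 1090 in UTX TCD libraries, and *Cd79b* had the highest mean of the list in both genotypes. Of 3 CD4 and regulatory T cell markers, *Cd4* and *Zbtb7b* were called lower by limma and edgeR, while DESeq2 called 1 gene, and the list summed to 475, 373 and 442 in WT libraries and 373, 350 and 344 in UTX TCD libraries, with *Foxp3* holding the most. Of 8 myeloid markers, 4 were tested and *Csf1r* was called lower, with sums of 4712, 4150 and 3427 against 3626, 2819 and 2778, mostly *Cst3*. Of 4 NK cell genes, 3 were tested and *Eomes*, which CD8+ T cells also express, was called higher and made up most of sums of 13560, 15529 and 13310 against 19262, 19193 and 26950. The other 2 tested were lower without a call, and the median log2 fold change of the 3 was -0.35.

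Of 5 pancreas genes, 2 were tested and *Cela1* was called lower, beside the same 17.6% of all genes tested. Their sums were 203, 180 and 154 against 139, 125 and 114, *Prss2* had the most, and *Ins2* was at 0 in every library. Of 4 erythroid and platelet genes, 2 were tested and none was called by limma, edgeR or DESeq2 (0 had an unadjusted limma p under 0.05), with sums of 242, 196 and 169 against 173, 163 and 299, of which *Alas2* had the most normalized counts. The part of other cells, and of the lower *Cxcr6*, in the transporter values was not tested.

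Chromatin around the transporters was described from the authors' group means of normalized ATAC-seq reads per peak, on a log2 scale. In ATAC-seq, a transposase cuts accessible DNA, and reads pile up at open sites. No value per library was used, so these means carry no SD and no test was made. The table lists peaks past an FDR of 0.05 and no others, so a gene without a listed peak may still have open sites. Of the 29 peaks of the transporters, 24 were higher in UTX TCD cells, which is 82.8%, against 68.8% of all listed peaks. The difference of group means exceeded 0.5 in 19 of the 29, or 65.5%, against 73.1% of all listed peaks. By annotation, 15 lay in introns, 10 between genes, 3 at promoters and 1 at a transcription termination site, and *Slc7a6* alone had none.

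*Slc7a1* carried 6 listed peaks, all higher in UTX TCD cells. The largest difference was in intron 1, 4.43 kb into the gene at chr5:148388185-148388585 (mm10), where the log2 mean was 9.27 in WT libraries and 10.45 in UTX TCD libraries. A peak in intron 6 at chr5:148342374-148342774 stood at 9.35 and 10.35. The promoter peak at chr5:148399714-148400114 was the most accessible of the 6, at 11.51 and 11.75, and differed least, by 0.24. The other 2 intron peaks were higher by 0.40 and 0.41, and a peak between genes by 0.71.

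*Slc7a11*, whose mRNA was near absent in both genotypes, had 6 listed peaks too, and all were higher in UTX TCD cells. The widest gap of all 29 lay between genes at chr3:50220885-50221285, 223 kb past the transcript start used in the peak annotation. Its log2 means were 3.15 in WT libraries and 5.79 in UTX TCD libraries, which are 8.87 and 55.3 reads. The promoter peak at chr3:50443338-50443738 was at 7.19 and 7.91. The mRNA overlapped between genotypes, at 9.84 ± 5.57 normalized counts in WT and 7.12 ± 2.31 in UTX TCD cells (SD, n = 3 per genotype).

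The neighbours *Slc38a1* and *Slc38a2* on chromosome 15, held all 5 lower peaks of the family. Their 10 listed peaks, 5 higher and 5 lower, spanned 261 kb. The strongest loss was 29.2 kb upstream of *Slc38a2* at chr15:96728743-96729143, from a log2 mean of 6.36 in WT to 4.53 in UTX TCD cells. Next came intron 4 of *Slc38a1* at chr15:96592910-96593310, from 8.04 to 6.98. Gains flanked these losses, among them 2 peaks in intron 3 of *Slc38a2*, with differences of 0.55 and 0.34, and a strong peak 128 kb upstream at chr15:96827475-96827875, at 10.94 and 11.52, within the lncRNA *Gm32564*.

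**Figure D3:**
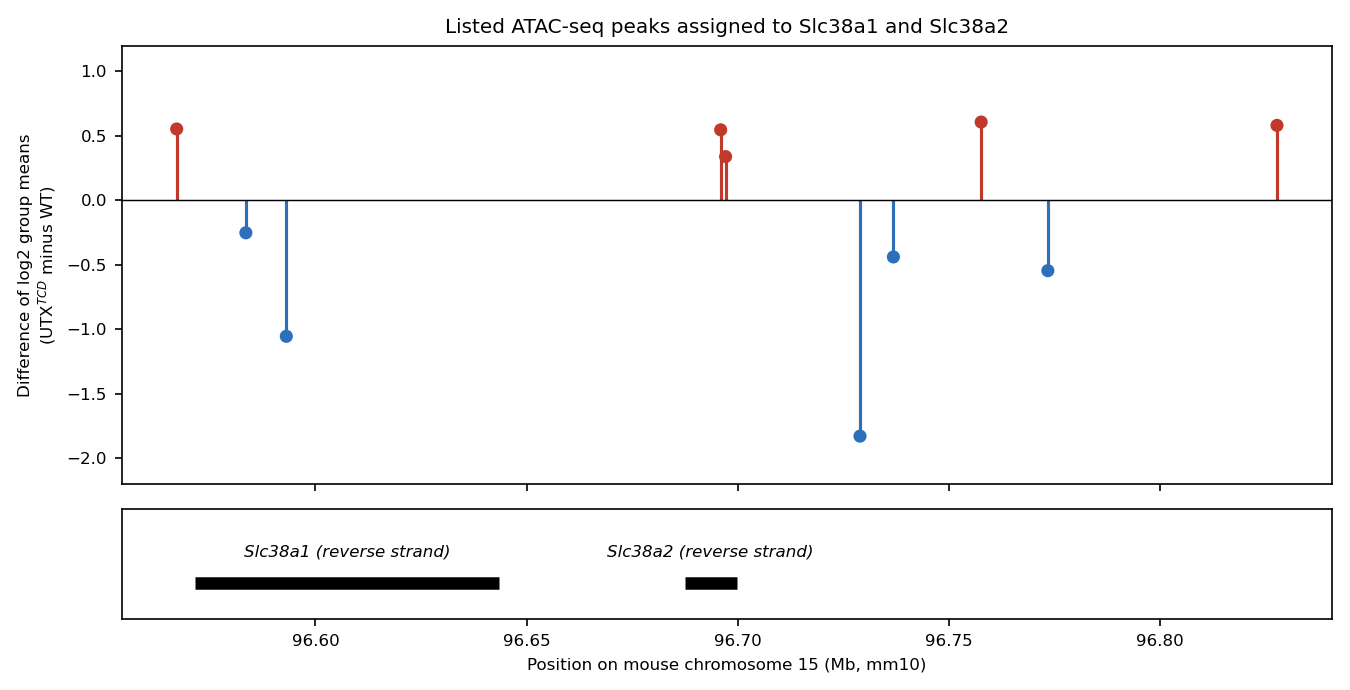
Difference of the authors' log2 group means, UTX TCD minus WT (y axis), for the 10 listed ATAC-seq peaks annotated to *Slc38a1* and *Slc38a2* along chromosome 15 (x axis, Mb, mm10), with gains in red, losses in blue and the gene bodies as black bars. Of these peaks, 5 point up and 5 down, and the deepest point, at -1.83, lies upstream of *Slc38a2*.

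The remaining 5 genes with listed peaks had gains alone. *Slc7a5* had a single one, in intron 1 at chr8:121898481-121898881, from 6.34 in WT to 7.44 in UTX TCD cells, although its mRNA overlapped between genotypes. *Slc1a5* had 2, in introns 5 and 6, the larger at chr7:16792080-16792480 from 7.02 to 7.92. *Slc43a1* had one at its promoter and one 1.27 kb upstream, the latter at chr2:84837941-84838341 from 8.33 to 9.07. *Slc1a4* had one just past its transcription end at chr11:20301333-20301733, from 5.82 to 6.44. *Slc3a2* had one in intron 1 at chr19:8718365-8718765, from 9.41 to 9.66, while its mRNA was lower.

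Short sequence motifs were searched on both strands of the peaks and of RefSeq promoters (GRCm38.p6, 250 bases before to 50 after each gene start). Of the 10 genes, 7 were in the promoter table, and *Slc7a5*, *Slc1a5* and *Slc38a1* were not. The core of the amino acid response element that ATF4 binds, TGATGNAA, lay in 5 of the 29 transporter peaks (17.2%), against 5.12% of 23908 listed peaks on assembled chromosomes. It lay in 2 of the 7 promoters, *Slc7a11* and *Slc1a4*, against 4.06% of 27025 promoters. The TCF and LEF motif CTTTGA lay in 12 of the 29 peaks (41.4%), against 30.6%, the STAT motif TTCNNNGAA in 4 (13.8%), against 11.9%, and the MYC and MAX motif CACGTG in 3 (10.3%), against 8.35%. A match says only that these letters are present.

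The *Slc7a11* promoter is shown because it carries 2 of these cores, lies partly under a gained peak, and belongs to a gene that was hardly expressed. The 250 bases before the start of the RefSeq transcript, chr3:50443614-50443863 on the reverse strand (GRCm38.p6), read as follows, with TGATGNAA on either strand in capitals. The cores begin 66 and 47 bases before the start and face each other.
Slc7a11 promoter: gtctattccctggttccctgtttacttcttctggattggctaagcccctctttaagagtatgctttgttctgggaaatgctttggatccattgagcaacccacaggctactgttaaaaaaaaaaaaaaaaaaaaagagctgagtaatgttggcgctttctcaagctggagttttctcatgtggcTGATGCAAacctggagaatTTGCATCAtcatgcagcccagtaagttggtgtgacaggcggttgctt

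Peaks with the same core elsewhere in the family went in both directions. Its surroundings are shown for the 3 such peaks outside promoters, 80 bases each on the forward strand (mm10), with the core in capitals. They are the *Slc38a2* peak 37.1 kb upstream, which was lower by a log2 difference of -0.44, the *Slc7a1* intron 6 peak, higher by 0.99, and the *Slc7a5* intron 1 peak, higher by 1.10. Their positions are chr15:96736796-96736875, chr5:148342512-148342591 and chr8:121898559-121898638.
Slc38a2 upstream: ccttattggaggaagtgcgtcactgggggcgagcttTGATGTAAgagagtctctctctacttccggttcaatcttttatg
Slc7a1 intron 6: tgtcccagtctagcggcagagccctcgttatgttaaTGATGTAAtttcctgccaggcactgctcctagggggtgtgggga
Slc7a5 intron 1: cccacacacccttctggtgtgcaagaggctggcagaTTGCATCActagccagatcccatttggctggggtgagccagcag

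The central 150 bases of 3 further peaks are shown because of the size of their difference or of their gain in reads. They are the *Slc7a11* peak with the largest gain (chr3:50221010-50221159), the *Slc38a2* peak with the largest loss (chr15:96728868-96729017) and the *Slc38a2* peak that gained most reads (chr15:96827600-96827749), all on the forward strand of mm10, with CTTTGA on either strand in capitals. Each of the gained peaks holds 1 such match in this stretch, and the lost peak holds 0.
Slc7a11 largest gain: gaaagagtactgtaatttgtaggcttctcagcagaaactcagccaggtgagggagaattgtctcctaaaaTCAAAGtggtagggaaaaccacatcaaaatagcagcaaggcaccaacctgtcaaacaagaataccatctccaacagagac
Slc38a2 largest loss: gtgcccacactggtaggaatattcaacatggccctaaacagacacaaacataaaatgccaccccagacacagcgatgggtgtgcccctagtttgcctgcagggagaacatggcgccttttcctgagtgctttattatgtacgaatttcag
Slc38a2 largest gain in reads: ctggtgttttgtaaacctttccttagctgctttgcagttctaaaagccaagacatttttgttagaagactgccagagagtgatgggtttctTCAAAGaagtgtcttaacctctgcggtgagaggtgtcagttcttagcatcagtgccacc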

How the data were processed

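HISAT2 2.2.1 (mm10), featureCounts and DESeq2 were the authors' tools for RNA-seq. The deposited RNA-seq values are a signal, reads over a size factor per library, and 100% of them gave whole reads within 0.1 read once the factor was undone. Which gene annotation and strand setting were used is not given in the sources used here, which limits what can be said of genes that overlap others. The authors' ATAC-seq steps were Cutadapt, Bowtie2 (mm10), removal of duplicates with Picard, MACS2, DiffBind and HOMER, and no transposase shift is stated. The deposited ATAC-seq group means are log2 normalized reads per peak of 401 bp, and each listed peak had an FDR under 0.05. Both tables also hold the authors' own comparison (fold changes with errors or p-values), which was not used.

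The fit was limma 3.58.1 (R 4.3.3) with lmFit, a trended eBayes and a single genotype term. On recovered reads, edgeR 4.0.16 called 2541 genes and DESeq2 1.42.0 called 2422. Replicates differed by more than counting noise, so none is a copy. Depth ranged from 61512402 to 193568919 reads. Exon lengths are the union of RefSeq exons (GRCm38.p6, the build of mm10). The members and lists were chosen with earlier results of these data known. Genes named are the 10 transporters, *Kdm6a*, the sort markers, the called genes of each list (at most 4 per direction) with its gene of the most normalized counts, the same and the called genes of each marker list, and the 3 genes most like the one of these 10 with the largest moderated statistic. Alternatives covered the pseudocount, low-value filter, scaling, test, replicate block, fold limit, peak limits and each library left out. Some items that this rule or the lists cover are not reported here.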

Additional observations from a re-analysis of the deposited data

How the results depend on the processing

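With 18 alternatives for each RNA-seq result and 3 for the peaks, the number of genes called ranged from 2065 to 5887 around 2538, and was outside 1.5 times that number with no fold limit alone (5887). *Slc1a5* and *Slc3a2* kept their direction and passed throughout, though the changed fold limits cannot alter a fold change or its p. Called transporters numbered 1, and 0 with no filter on low values, DESeq2, the replicate block or a fold over 1.5, and 6 with no fold limit. Leaving out 1 library gave 0 to 1 called and 2 to 4 at an adjusted p under 0.05, against 6 with all libraries, 3 with limma without trend and 4 with TMM scaling. Whether same-numbered libraries were paired is not given in the sources used here. Their deviations from the genotype means correlated at 0.31, -0.20 and 0.09, which cannot settle it. With the replicate number as a block 2474 genes were called, *Slc38a1* had an adjusted p of 0.0537 by limma, and not every library correlated best with its own number. *Slc7a5* turned to 0.00769 on the log2 scale with libraries scaled to the same sum, and *Slc43a1* ranged from -0.27 to 0.0609 with 1 library left out, above 0 without WT replicate 2 (0.0221) or UTX TCD replicate 2. The cause was not tested. That scaling moved the median log2 fold change of all genes to 0.06.

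Among lists, with no fold limit the calls were 11 of 21 other transporters tested, 9 of 19 genes of the ATF4 response, 13 of 35 of mTORC1, 8 of 25 enzymes and 4 of 12 activation genes. At that setting 5887 of all 14459 genes tested were called, 20.2% of them all as higher and 20.5% as lower. Limma without trend called 3 genes of the ATF4 response and 1 activation gene, and DESeq2 1 activation gene. Of 19 transporter peaks with a difference over 0.5, 5 exceeded 1, 1 lay within 1 kb of a start site and 9 within 50 kb. Depth limits *Slc7a11*, *Slc1a4* and *Slc43a1*, which have few reads, and 3 libraries per genotype limit the small differences of the others.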

Other observations

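Peaks were also read for the 12 genes called in the lists of other transporters and of the ATF4 response, which were chosen after their values were seen. Of these, 10 had listed peaks, 27 in all, 13 higher and 14 lower in UTX TCD cells by the authors' group means, where 68.8% of all listed peaks were higher. Of the 14 lower peaks, 10 belong to *Slc16a10*. The *Asns* promoter peak at chr6:7693044-7693444 (mm10) went from a log2 mean of 6.28 in WT to 8.38 in UTX TCD cells, in the direction of its mRNA. The one listed *Ddit3* peak, at chr10:127300696-127301096, went from 4.23 to 7.04. It lies past the end of *Ddit3*, 10.1 kb from the start site used in the peak annotation. The *Slc7a4* promoter peak at chr16:17576484-17576884 went from 7.20 to 9.13.

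*Slc16a10*, called lower in mRNA, had 11 listed peaks in all. The largest loss, 10.3 kb upstream at chr10:40152314-40152714, went from a log2 mean of 8.30 to 5.69. *Slc6a19* went the other way from its mRNA, with 3 listed peaks, all lower, the largest difference being -1.22. *Slc7a7*, which had the largest mRNA difference of the transporters tested, had no listed peak. None of these peak values was tested here.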
